A study of Mus musculus with 18 samples.

Results

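Matrix metalloproteinases are zinc-dependent enzymes that cut the proteins of the extracellular matrix, and tissue inhibitors of metalloproteinases (TIMPs) bind their active site and block them. The genes described here are 7 metalloproteinases (Mmp2, Mmp9, Mmp11, Mmp14, Mmp15, Mmp16 and Mmp23) and 3 inhibitors (Timp1, Timp2 and Timp3), taken by symbol from the annotation of the array. Probe sets were found for 9 of the 10 genes, with 25 probe sets out of 45037 tested, which stood for 18193 genes in all. No probe set carried the symbol Mmp15 in the annotation used here, so that Mmp15 was not analysed. Of the 25 probe sets, those of Mmp2 (2), Mmp11 (1), Mmp14 (3), Mmp23 (2), Timp1 (1), Timp3 (4) and 5 of the 6 of Timp2 lay above the median level of all probe sets, while the 2 of Mmp9 and the 4 of Mmp16 lay below it.

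Lungs came from BALB/c fetuses harvested at gestational day 18 (GD18) or GD17. The dams of flutamide-treated males (18 flut and 17 flut) received 1 mg of flutamide, an antagonist of the androgen receptor, by a daily subcutaneous injection that began on GD10 and ended on the day before harvest. The dams of males (18 m and 17 m) and of females (18 f and 17 f) received the vehicle on the same schedule. As the study describes, each array held the RNA of 3 fetuses of 1 sex and treatment from distinct litters. There were 3 such pools in each of the 6 groups, 18 arrays in all. Signals are log2 of the deposited intensity, and a difference of 1 is a doubling. A probe set was called when its limma p, adjusted by Benjamini-Hochberg over all probe sets within a comparison, was under 0.05, and unless another is named the values of a gene are those of its probe set with the highest mean over the 18 arrays. Each gene was compared between the days, between flutamide-treated males and males, and between males and females, since the study asked how sex and fetal androgens act on the lung at the transition to the saccular stage.

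In the late fetal lung, metalloproteinases and their inhibitors reshape the basement membranes and the interstitial matrix as the distal airways widen into saccules. Mmp14, a protease anchored in the plasma membrane, activates the proenzyme of Mmp2 at the cell surface, with Timp2 as the bridge between them. Timp3 differs from the other inhibitors in that it binds to the matrix itself, and it also blocks several proteinases of the ADAM and ADAMTS families. Timp1 inhibits most secreted metalloproteinases, but is a poor inhibitor of the membrane-type enzymes.

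The pools were not uniform. Lung epithelial genes were present in every pool, and the summed signal of 6 markers (linear scale) split by day, at 37660 to 41510 in 18 flut, 35260 to 36240 in 18 m and 36300 to 39340 in 18 f, against 26440 to 27510 in 17 flut, 20980 to 25670 in 17 m and 21510 to 22550 in 17 f. Xist, which is high in females, reached 11.95 in pool 3 of 18 flut, where pools 1 and 2 had 8.15 and 8.08, with 7.98 to 8.21 in 18 m and 12.33 to 12.51 in 18 f. The Y-linked gene Eif2s3y was at 7.21 in this pool, against 8.04 and 8.16 in pools 1 and 2, so that the pool went against its label of males alone. Pools 2 and 3 of 17 f and pool 3 of 17 m held exocrine pancreas genes, with a summed signal of 9 markers between 11250 and 14570, against 619.9 to 912.2 in the other 15 pools. Pool 3 of 18 m had the highest liver signal (72730 over 8 markers, against 2033 to 40210 elsewhere) and the most negative 5′ minus 3′ log2 difference of the bacterial control RNAs (-2.22, against -1.22 to -0.47 elsewhere).

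The gestational day was the main axis along which these genes varied (see the plot of the log2 signal of each pool). The inhibitors moved in opposite directions: Timp3 and Timp2 were higher at GD18 than at GD17 in flutamide-treated males, males and females, whereas Timp1 was lower in each of them. Mmp2 and Mmp14 were higher at GD18 in the same 3 kinds of fetuses. Of the 9 genes, 5 were called between the days in flutamide-treated males (26.7% of all genes were called), 7 in males (30.1% of all genes) and 5 in females (39.6% of all genes). Called higher at GD18 were 4, 5 and 4 of the 9 genes in these groups, where 13%, 17.7% and 17.2% of all genes were called higher. Called lower were 1, 2 and 1, where 13.8%, 12.4% and 22.5% of all genes were. The median difference over the 9 genes was 0.11 in flutamide-treated males, 0.25 in males and 0.14 in females, beside -0.01, 0.03 and -0.01 over all genes. Of the 25 probe sets, 10 were called in flutamide-treated males (20.3% of all probe sets), 13 in males (25% of all) and 11 in females (33.6% of all). In whole lung, more or fewer cells of a type and more or less RNA per cell cannot be told apart. Over the 18 arrays the day accounted for 89.9% of the variance of Timp3, 86.7% of that of Mmp14, 82.6% of that of Mmp2, 79% of that of Timp1 and 76% of that of Timp2. For Mmp23, Mmp16, Mmp9 and Mmp11 the share was 51.4%, 22.7%, 17.7% and 0.155%.

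**Figure D1:**
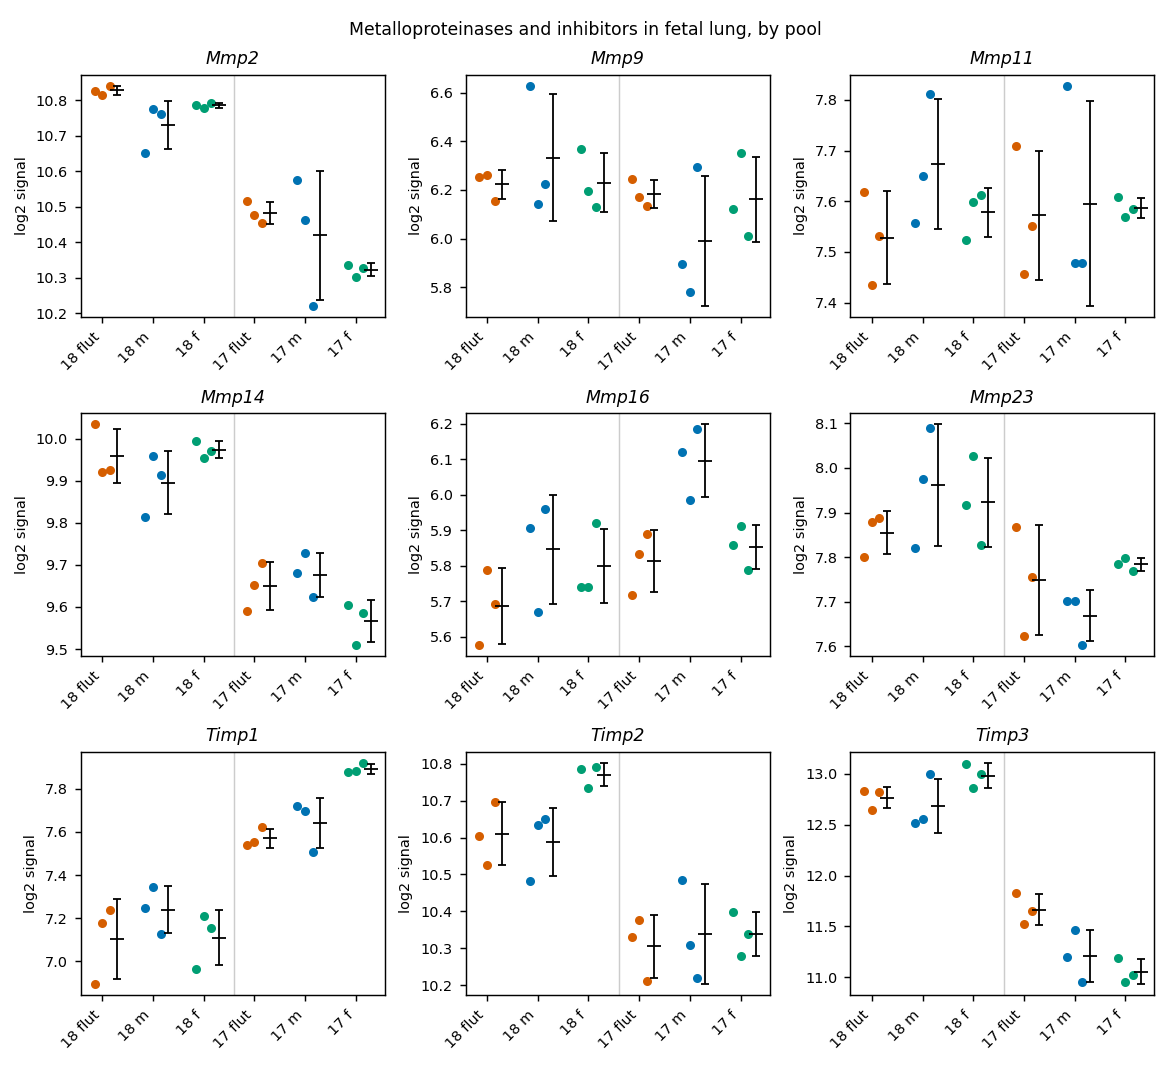
Log2 signal of the 9 genes in each of the 18 pools, 3 per group, with GD18 to the left of GD17 and, within a day, flutamide-treated males, males and females. The 9 GD18 pools of Timp3 lie between 12.51 and 13.10 and the 9 GD17 pools between 10.95 and 11.82, and Mmp11 has no such step.

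Timp3, the matrix-bound inhibitor, showed the largest change of the 9 genes. Its signal was 12.83, 12.65 and 12.82 in 18 flut, against 11.82, 11.52 and 11.65 in 17 flut. It was 12.51, 12.56 and 12.99 in 18 m, against 11.20, 11.47 and 10.96 in 17 m. It was 13.10, 12.86 and 12.99 in 18 f, against 11.19, 10.95 and 11.02 in 17 f. Every GD18 pool lay above every GD17 pool. The difference was 1.10 in flutamide-treated males (95% interval 0.81 to 1.39, 2.15-fold, adjusted p = 3.2e-05), 1.48 in males (1.19 to 1.77, 2.79-fold, adjusted p = 2.7e-06) and 1.93 in females (1.64 to 2.22, 3.81-fold, adjusted p = 8.5e-08). All 4 probe sets of Timp3 were called higher at GD18 in each case, by 1.10 to 1.55 in flutamide-treated males, 0.89 to 1.49 in males and 1.69 to 1.93 in females. Left out together, pool 3 of 17 m and pools 2 and 3 of 17 f took the differences to 1.35 in males and 1.79 in females. Only pool 1 of 17 f was then left. Without pool 3 of 18 flut the difference in flutamide-treated males was 1.08 for Timp3 (adjusted p = 0.00033), 0.34 for Mmp2 (adjusted p = 0.013) and 0.33 for Mmp14 (adjusted p = 0.0043).

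Timp1, the X-linked inhibitor, moved the other way. In 18 flut it stood at 6.89, 7.18 and 7.24, against 7.54, 7.55 and 7.62 in 17 flut. In 18 m it stood at 7.25, 7.34 and 7.13, against 7.72, 7.70 and 7.51 in 17 m, and in 18 f at 6.97, 7.21 and 7.15, against 7.88, 7.88 and 7.92 in 17 f. The pools of GD18 were all below those of GD17. Timp1 fell by 0.47 in flutamide-treated males (1.38-fold, adjusted p = 0.0016), by 0.40 in males (1.32-fold, adjusted p = 0.0042) and by 0.78 in females (1.72-fold, adjusted p = 5.9e-06). Without pool 3 of 18 flut, the pool with the high Xist signal, it fell by 0.53 in flutamide-treated males (adjusted p = 0.0019).

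Timp2, which both inhibits Mmp2 and takes part in its activation, rose less than Timp3. Its signal averaged 10.61 ± 0.09 in 18 flut and 10.30 ± 0.09 in 17 flut (SD, n = 3 pools each), 10.59 ± 0.09 in 18 m and 10.34 ± 0.14 in 17 m, and 10.77 ± 0.03 in 18 f and 10.34 ± 0.06 in 17 f. The pools of the males overlapped between the days (10.48, 10.63 and 10.65 in 18 m, against 10.49, 10.31 and 10.22 in 17 m), whereas those of the females did not (10.79, 10.74 and 10.79 in 18 f, against 10.40, 10.28 and 10.34 in 17 f). The difference was 0.30 in flutamide-treated males (adjusted p = 0.009), 0.25 in males (adjusted p = 0.024) and 0.43 in females (adjusted p = 3e-04). The probe set 1454677_at of Timp2 was also called higher at GD18 in flutamide-treated males (0.44), males (0.35) and females (0.39), and 1450040_at in females (0.47), while the other 3 of the 6 probe sets were called in none of them. The call in males was lost without pool 2 or pool 3 of 17 m, or pool 2 or pool 3 of 18 m (0.19 to 0.24, adjusted p = 0.072 to 0.11), and that in flutamide-treated males without pool 3 of 17 flut or of 18 flut (0.26 in each case, adjusted p = 0.052).

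The promoters of the inhibitors that moved and of Mmp14 are shown because these genes changed between the days together, Timp1 against the others. They are the 250 bases before the RefSeq start of each gene on GRCm38.p6, written 5′ to 3′ on the strand of the gene, and capitals mark GC boxes (GGGCGG on either strand, motifs bound by Sp1).
Timp3 (chr10:86300162-86300411, plus strand): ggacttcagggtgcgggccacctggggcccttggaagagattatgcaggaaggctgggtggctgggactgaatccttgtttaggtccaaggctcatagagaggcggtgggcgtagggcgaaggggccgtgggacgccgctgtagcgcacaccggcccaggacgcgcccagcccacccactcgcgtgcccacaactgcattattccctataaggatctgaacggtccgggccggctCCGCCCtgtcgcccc
Timp1 (chrX:20869916-20870165, plus strand): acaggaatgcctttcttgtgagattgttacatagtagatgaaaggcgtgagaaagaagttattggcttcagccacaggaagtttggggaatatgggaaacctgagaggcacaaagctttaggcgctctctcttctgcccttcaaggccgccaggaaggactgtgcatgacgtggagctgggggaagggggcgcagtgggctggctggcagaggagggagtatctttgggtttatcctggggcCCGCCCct
Timp2 (chr11:118355412-118355661, minus strand): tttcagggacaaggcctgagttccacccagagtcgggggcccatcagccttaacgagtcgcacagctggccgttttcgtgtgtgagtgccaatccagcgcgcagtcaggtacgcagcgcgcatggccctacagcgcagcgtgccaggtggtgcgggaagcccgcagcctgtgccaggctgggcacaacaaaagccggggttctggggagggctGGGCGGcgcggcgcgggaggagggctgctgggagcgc
Mmp14 (chr14:54431348-54431597, plus strand): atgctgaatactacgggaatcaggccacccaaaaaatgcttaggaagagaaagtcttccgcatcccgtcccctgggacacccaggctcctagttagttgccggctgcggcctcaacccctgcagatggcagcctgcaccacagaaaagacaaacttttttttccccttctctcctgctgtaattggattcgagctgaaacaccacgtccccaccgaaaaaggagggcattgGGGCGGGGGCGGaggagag
Timp3, Timp1 and Timp2 had 1 GC box each and Mmp14 had 2 adjacent ones, and 32.7% of 32851 mouse promoters of this length had at least 1. Neither the AP-1 motif TGANTCA (in 6.75% of these promoters) nor the hexamer TGTTCT of the androgen response element (in 16.1%), each searched on both strands, occurred in the 4 windows. The hexamer occurred in the windows of Mmp11 and Mmp23, 1 match in each. Promoters were matched for 7 of the 10 genes, Mmp15 among them. A match of letters is a description of the sequence only.

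Among the metalloproteinases, Mmp2 (gelatinase A, which cuts type IV collagen and denatured collagen) had signals of 10.83, 10.81 and 10.84 in 18 flut, against 10.52, 10.48 and 10.45 in 17 flut. It had 10.65, 10.78 and 10.76 in 18 m, against 10.58, 10.46 and 10.22 in 17 m, and 10.79, 10.78 and 10.79 in 18 f, against 10.34, 10.30 and 10.33 in 17 f. No pool of GD17 reached a pool of GD18, and the spread between pools was widest in 17 m (SD 0.18), against 0.01 in 18 flut and in 18 f. Mmp2 rose by 0.34 in flutamide-treated males (1.27-fold, adjusted p = 0.0027), by 0.31 in males (1.24-fold, adjusted p = 0.005) and by 0.46 in females (1.38-fold, adjusted p = 9.8e-05), each with a standard error of 0.07. Its other probe set, 1416136_at, was called in the same direction in all 3 (0.36, 0.24 and 0.50).

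Mmp14, the membrane-type activator of Mmp2, had signals of 10.03, 9.92 and 9.93 in 18 flut, against 9.59, 9.65 and 9.70 in 17 flut. In 18 m they were 9.81, 9.96 and 9.91, against 9.68, 9.73 and 9.62 in 17 m, and in 18 f 9.99, 9.95 and 9.97, against 9.61, 9.51 and 9.59 in 17 f. Here too the 9 pools of GD18 lay above the 9 pools of GD17. Mmp14 rose by 0.31 in flutamide-treated males (adjusted p = 0.0013), by 0.22 in males (adjusted p = 0.013) and by 0.41 in females (adjusted p = 5.4e-05). The call in males was lost without pool 3 of 17 m (0.19, adjusted p = 0.052) or pool 2 of 18 m (0.19, adjusted p = 0.055). The other 2 probe sets of Mmp14 were not called between the days. They followed the first only in part over the 18 arrays (r = 0.34 and 0.44), whereas those of Mmp2 (r = 0.97) and Timp3 (r = 0.89 to 0.95) ran together.

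**Figure D2:**
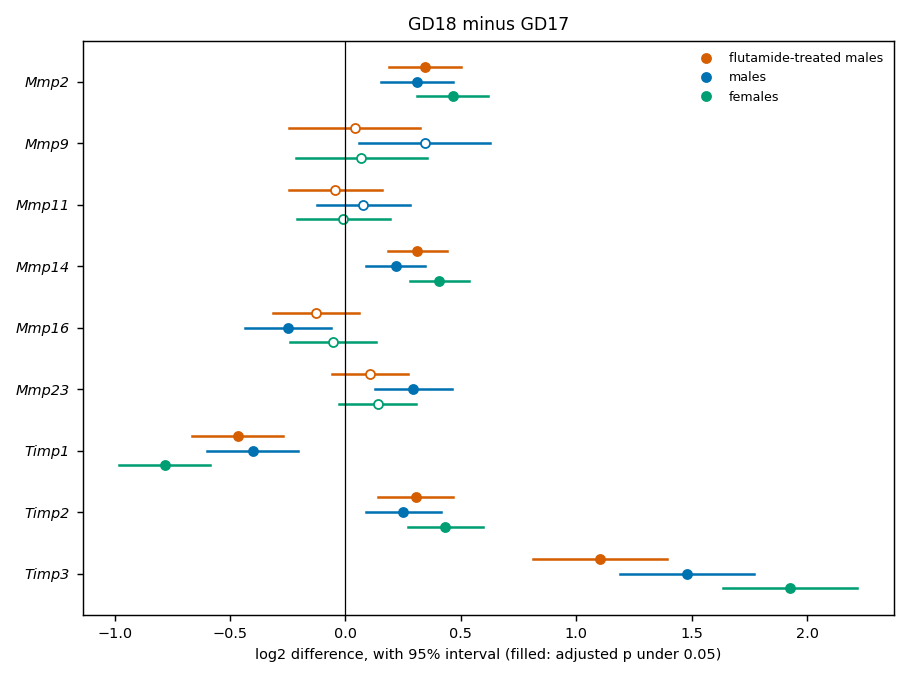
Difference in log2 signal, GD18 minus GD17, of the 9 genes in flutamide-treated males, males and females, with 95% intervals and filled points for an adjusted p under 0.05. Timp3 lies to the right at 1.10, 1.48 and 1.93, Timp1 to the left at -0.47, -0.40 and -0.78, and Mmp2, Mmp14 and Timp2 lie between 0.22 and 0.46.

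The other 4 metalloproteinases changed less. Mmp23, a membrane protease that lacks the hemopexin domain of most of the family, had signals of 7.82, 7.98 and 8.09 in 18 m, against 7.70, 7.70 and 7.60 in 17 m. It rose by 0.29 in males (adjusted p = 0.011), while the differences in flutamide-treated males (0.11, 95% interval -0.06 to 0.27, adjusted p = 0.42) and in females (0.14, -0.03 to 0.31, adjusted p = 0.2) were not called. The call in males was lost without pool 3 of 18 m (0.23, adjusted p = 0.054) or without the 3 pools that held pancreas genes (0.26, adjusted p = 0.073). The other probe set of Mmp23, 1417281_a_at, differed by 0.32 in males and was not called (adjusted p = 0.12). Mmp16, another membrane-type enzyme that can activate Mmp2, had signals of 5.91, 5.67 and 5.96 in 18 m, against 6.12, 5.98 and 6.18 in 17 m. It fell by 0.25 in males (adjusted p = 0.048), and this call was lost without pool 1 of 17 m, pool 3 of 17 m or pool 2 of 18 m (-0.24 to -0.16, adjusted p = 0.12 to 0.21). In flutamide-treated males and females Mmp16 differed by -0.13 (adjusted p = 0.38) and -0.05 (adjusted p = 0.7). Its probe set 1440161_at had signals of 5.39, 5.47 and 5.79 in 18 m, all below 6.82, 6.20 and 6.59 in 17 m. On this probe set Mmp16 fell by 0.98 in males (1.98-fold, adjusted p = 0.00064), and the differences in flutamide-treated males (-0.40, adjusted p = 0.13) and females (-0.23, adjusted p = 0.38) were not called.

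Mmp9 (gelatinase B, made mostly by neutrophils and macrophages) was called in none of the comparisons. Its signals were 6.63, 6.14 and 6.23 in 18 m, against 5.90, 5.78 and 6.29 in 17 m, and these pools overlapped. The difference in males was 0.34 (95% interval 0.06 to 0.63, adjusted p = 0.075), and it was called without pool 3 of 17 m (0.49, adjusted p = 0.012) or pool 2 of 18 m (0.44, adjusted p = 0.038). In flutamide-treated males and females it was 0.04 and 0.07. On the other probe set of Mmp9, 1448291_at, the difference in males was 0.07 (adjusted p = 0.59). The summed signal of 7 neutrophil markers was 2323 to 6919 in 18 m and 684.8 to 2091 in 17 m. It was 2613 to 4395 in 18 flut and 1239 to 1827 in 17 flut. In females it was 1810 to 2115 in 18 f and 985.1 to 3577 in 17 f. In males 4 of the 7 were called higher at GD18, where 17.7% of all genes were. None was called in flutamide-treated males, and only Elane, lower, in females. The part of these markers in the difference of Mmp9 was not tested. Mmp11 (stromelysin-3, a secreted enzyme cut to its active form by furin inside the cell) stayed between 7.43 and 7.83 in all 18 pools. Its differences between the days were -0.04 in flutamide-treated males (95% interval -0.25 to 0.16), 0.08 in males (-0.12 to 0.28) and -0.01 in females (-0.21 to 0.19).

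Marker genes of other cell types also moved with the day. Beside their counts, 13%, 17.7% and 17.2% of all genes were called higher in flutamide-treated males, males and females. Called lower were 13.8%, 12.4% and 22.5% of all genes. The summed signal of 8 fibroblast markers was 20070 to 20660 in 18 flut and 13830 to 14300 in 17 flut, 17960 to 19640 in 18 m and 14390 to 16180 in 17 m, and 20530 to 21890 in 18 f and 13540 to 14190 in 17 f. Of these 8 markers, 5 were called higher and 1 lower in flutamide-treated males, 4 and 2 in males, and 5 and 1 in females. Of 6 endothelial markers, 5 were called higher in flutamide-treated males, 4 in males and 5 in females, with none lower. Of 7 macrophage markers, 3, 3 and 2 were called higher and none lower. Lyz2 and Csf1r were called in each case, and Mrc1 in flutamide-treated males and males. C1qa, C1qb, Cd68 and Adgre1 were called in none. The lung epithelial markers given above did not overlap between the days, with 4 of 6 called higher and 1 lower in flutamide-treated males, in males and in females. The 4 mesothelial markers summed to 1375 to 1557 in 18 flut, 1378 to 1652 in 18 m and 1475 to 1734 in 18 f, against 723.3 to 851.4 in 17 flut, 784.5 to 850.5 in 17 m and 795 to 920.1 in 17 f, with 2, 3 and 2 called higher. Of 6 erythroid markers, 5 were called lower and 1 higher at GD18 in females, with sums of 5822 to 7391 in 18 f and 9390 to 10830 in 17 f, against 1 higher and 1 lower in flutamide-treated males and 1 higher and 2 lower in males. Of the smooth muscle markers, Acta2 (-0.37), Cnn1 (-0.71) and Myh11 (-0.34) were called lower in males, and none was called in flutamide-treated males or females. Of the cartilage markers, Hapln1 was called lower in flutamide-treated males (-0.56) and Col9a1 in males (-0.87), and Acan was called higher in females (0.26). The other cartilage markers were not called. They went both ways in flutamide-treated males (Col9a1 -0.52, Col2a1 0.39) and in females (Col9a1 -0.44, Col2a1 0.52). The part of these markers in the changes of the metalloproteinases and inhibitors was not tested. The mean 5′ minus 3′ difference of the 4 mouse messenger RNA control pairs was -1.06 to -0.95 in 18 flut and -0.98 to -0.95 in 17 flut, -1.49 to -0.85 in 18 m and -0.90 to -0.81 in 17 m, and -1.10 to -1.02 in 18 f and -0.98 to -0.93 in 17 f. The same difference of the ribosomal RNA control pair was 2.16 to 2.72 in 17 f and lower in the other groups (-1.84 to 2.01). The part of the controls in the changes was not tested either.

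Flutamide-treated males were next compared with males of the same day. None of the 9 genes was called at GD18 (4.22% of all genes were called) or at GD17 (2.69% of all genes), and 0 genes at GD18 and 2 at GD17 had an unadjusted limma p under 0.05. The GD18 values include pool 3 of 18 flut, which went against its label of males alone. With any 1 pool of 18 flut or 18 m left out, this pool among them, again 0 genes were called at GD18. The median size of the difference was 0.11 at GD18 and 0.07 at GD17, beside 0.10 over all genes on each day. The 2 genes at GD17 were Timp3 and Mmp16. Timp3 had 11.82, 11.52 and 11.65 in 17 flut, against 11.20, 11.47 and 10.96 in 17 m. The pools did not overlap, and the difference was 0.46 (95% interval 0.17 to 0.75, 1.37-fold, adjusted p = 0.076), with a call when pool 2 of 17 m was left out (0.59, adjusted p = 0.041). The other 3 probe sets of Timp3 were not called, and over all 4 the differences ran from -0.23 to 0.46. At GD18 the difference of Timp3 was 0.08 (-0.21 to 0.37, adjusted p = 0.82), and 0.23 without pool 3 of 18 m (adjusted p = 0.3). Its flutamide by day interaction, the GD18 difference minus the GD17 difference, was -0.38 (-0.79 to 0.03, adjusted p = 0.47), or -0.22 without that pool (adjusted p = 0.65), and none of the 9 genes was called for this interaction (0.17% of all genes).

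Mmp16 had signals of 5.72, 5.83 and 5.89 in 17 flut, all below 6.12, 5.98 and 6.18 in 17 m. The difference was -0.28 (95% interval -0.47 to -0.10, adjusted p = 0.086). Its probe set 1440161_at had 5.61, 5.35 and 5.54 in 17 flut, against 6.82, 6.20 and 6.59 in 17 m. On this probe set Mmp16 was lower in 17 flut by a log2 difference of -1.04 (2.05-fold, adjusted p = 0.0065), the 1 call among the 25 probe sets of these genes at GD17, where 3.55% of all probe sets were called. At GD18 it had 4.95, 5.32 and 5.02 in 18 flut, against 5.39, 5.47 and 5.79 in 18 m, a difference of -0.45 (adjusted p = 0.19). Both probe sets are below the median level of the array, and the remaining 2 probe sets of Mmp16 were not called.

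**Figure D3:**
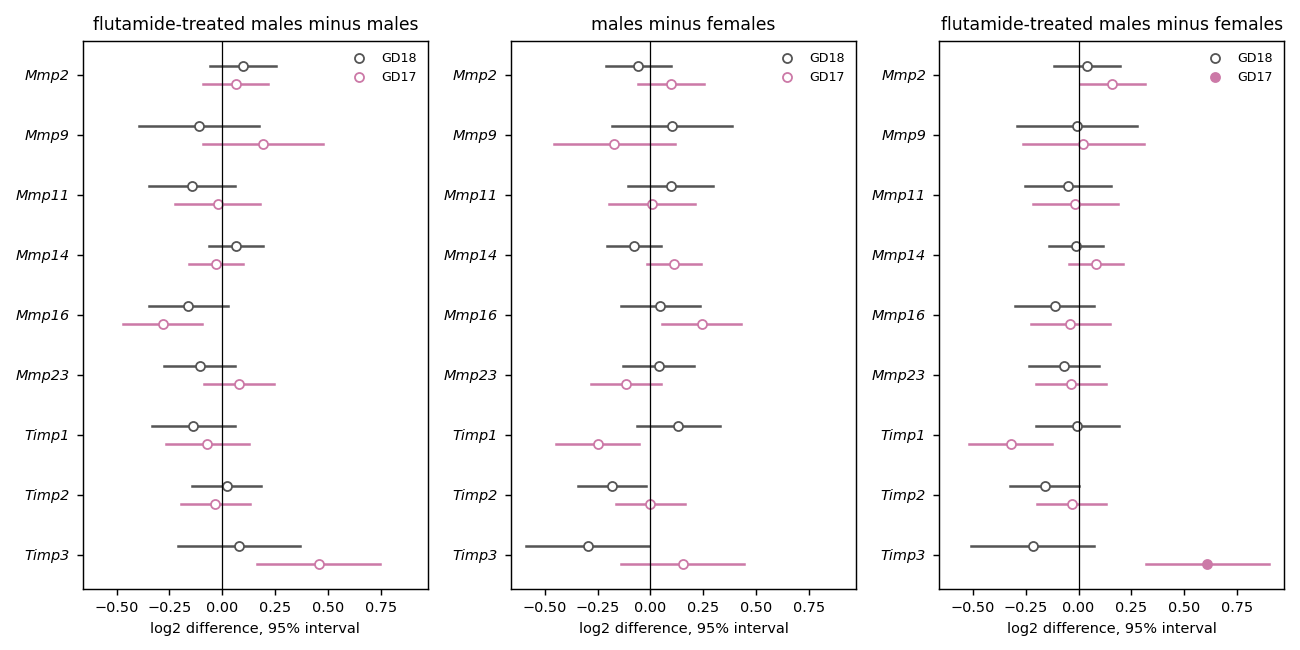
Difference in log2 signal of the 9 genes between groups of the same day (flutamide-treated males minus males, males minus females, and flutamide-treated males minus females), at GD18 and GD17, with 95% intervals and filled points for an adjusted p under 0.05. The 1 filled point is Timp3 at GD17 in flutamide-treated males against females, at 0.61.

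Between males and females, none of the 9 genes was called at GD18 (1.68% of all genes) or at GD17 (1.67% of all genes), and 2 genes on each day had an unadjusted limma p under 0.05. At GD18 these were Timp3 and Timp2. Timp3 had 12.51, 12.56 and 12.99 in 18 m, against 13.10, 12.86 and 12.99 in 18 f, with pool 3 of 18 m inside the range of the females. The difference was -0.30 (95% interval -0.59 to -0.01, adjusted p = 0.34), and without this pool -0.45 (adjusted p = 0.049). The other 3 probe sets of Timp3 were not called without this pool (-0.18, -0.09 and -0.23, adjusted p = 0.74, 0.84 and 0.5). Timp2 differed by -0.18 (-0.34 to -0.02, adjusted p = 0.28), with no overlap between 18 m and 18 f. At GD17 the 2 genes were Mmp16 and Timp1. Timp1 had 7.72, 7.70 and 7.51 in 17 m, all below 7.88, 7.88 and 7.92 in 17 f, a difference of -0.25 (-0.45 to -0.05, adjusted p = 0.17). Mmp16 differed by 0.24 (0.06 to 0.43, adjusted p = 0.15), and its probe set 1440161_at, at 6.82, 6.20 and 6.59 in 17 m and 5.58, 5.87 and 5.51 in 17 f, was called higher in males by 0.88 (0.51 to 1.26, 1.85-fold, adjusted p = 0.0075), the 1 call among the 25 probe sets, where 4.1% of all were called. On that probe set the 3 pools of 17 m were above the other 15 pools of the series.

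The sex by day interaction, again the GD18 difference minus the GD17 difference, was called for none of the 9 genes (4.77% of all genes). Timp3 had -0.45 (95% interval -0.86 to -0.04, adjusted p = 0.2) and Timp1 had 0.38 (0.10 to 0.66, adjusted p = 0.1). Without pool 3 of 18 m both were called, Timp3 at -0.60 (adjusted p = 0.037) and Timp1 at 0.44 (adjusted p = 0.047). The call of Timp3 rested on 1 probe set. Its other 3 probe sets had -0.23, -0.27 and -0.51 without this pool (adjusted p = 0.73, 0.56 and 0.18). With all pools they had -0.28, -0.44 and -0.82, not called either. On probe set 1440161_at, the interaction of Mmp16 was -0.76 (adjusted p = 0.086), and it was called without this pool (-0.88, adjusted p = 0.037). The 3 interactions called without this pool had the same sign with it, and only the call changed. Over the fits with 1 pool left out, that of Timp3 ran from -0.60 to -0.32 and that of Timp1 from 0.31 to 0.44.

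Flutamide-treated males were also set beside females, with which they share no pool. At GD17, 1 of the 9 genes was called (4.56% of all genes), and at GD18 none was (0.165% of all genes), with 3 and 0 genes at an unadjusted limma p under 0.05. Pool 3 of 18 flut, with the high Xist signal, is in the GD18 values, and 0 genes were called with it or any other 1 pool left out. The called gene was Timp3, at 11.82, 11.52 and 11.65 in 17 flut, against 11.19, 10.95 and 11.02 in 17 f, a difference of 0.61 (95% interval 0.32 to 0.90, 1.52-fold, adjusted p = 0.026). The pools did not overlap. This was the 1 call among the 25 probe sets, where 4.39% of all were called, and the other 3 probe sets of Timp3 differed by -0.18 to 0.24. In addition, the call was lost without pool 2 or 3 of 17 f or without any 1 pool of 17 flut (0.53 to 0.68, adjusted p = 0.058 to 0.1). Without the 3 pools that held pancreas genes, which left only pool 1 of 17 f, the difference was 0.47. Marker genes differed between the same pools: the lung epithelial sum was 26440 to 27510 in 17 flut and 21510 to 22550 in 17 f (4 of 6 markers called higher), the erythroid sum was 5699 to 6712 in 17 flut and 9390 to 10830 in 17 f (3 of 6 called lower), and the squamous epithelium sum was 585.8 to 964.5 in 17 flut and 585.5 to 9040 in 17 f (1 of 8 called lower). Their part in the difference of Timp3 was not tested. Timp1 was at 7.57 ± 0.04 in 17 flut and 7.89 ± 0.02 in 17 f (SD, n = 3 pools each), a difference of -0.32 (-0.52 to -0.13, adjusted p = 0.058). On its probe set of highest mean, Timp3 at GD17 thus ran, from high to low, as 17 flut (11.66 ± 0.15), 17 m (11.21 ± 0.26) and 17 f (11.05 ± 0.12). The neighbours 17 m and 17 f overlapped. Over its 4 probe sets the difference of 17 flut from 17 m ran from -0.23 to 0.46, so that this order was not shared by all. At GD18 the order on the probe set of highest mean was 18 f (12.98 ± 0.12), 18 flut (12.77 ± 0.11) and 18 m (12.69 ± 0.27). The difference of 18 flut from 18 f was -0.22 (-0.51 to 0.07, adjusted p = 0.69), and 18 flut and 18 m overlapped.

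Pool 3 of 18 m did not stand apart in the same way on all probe sets of a gene. Probe set 1420924_at of Timp2 was at 8.57 and 8.44 in pools 1 and 2 of 18 m, against 6.85 in pool 3. Probe set 1416572_at of Mmp14 was at 8.67 and 8.69 in pools 1 and 2, against 7.60 in pool 3. On Timp3, probe set 1419088_at was at 8.83, 8.65 and 7.83, while the probe set of highest mean had its highest male value in pool 3. In this pool 2 of the 25 probe sets (8%) were lower by over 1 than the mean of pools 1 and 2, and so were 1.85% of all probe sets, with 0 of the 25 higher by as much. Without this pool, the GD18 minus GD17 difference in males was 0.12 rather than -0.43 for Timp2 on 1420924_at, and 0.13 rather than -0.23 for Mmp14 on 1416572_at, none of them called.

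**Figure D4:**
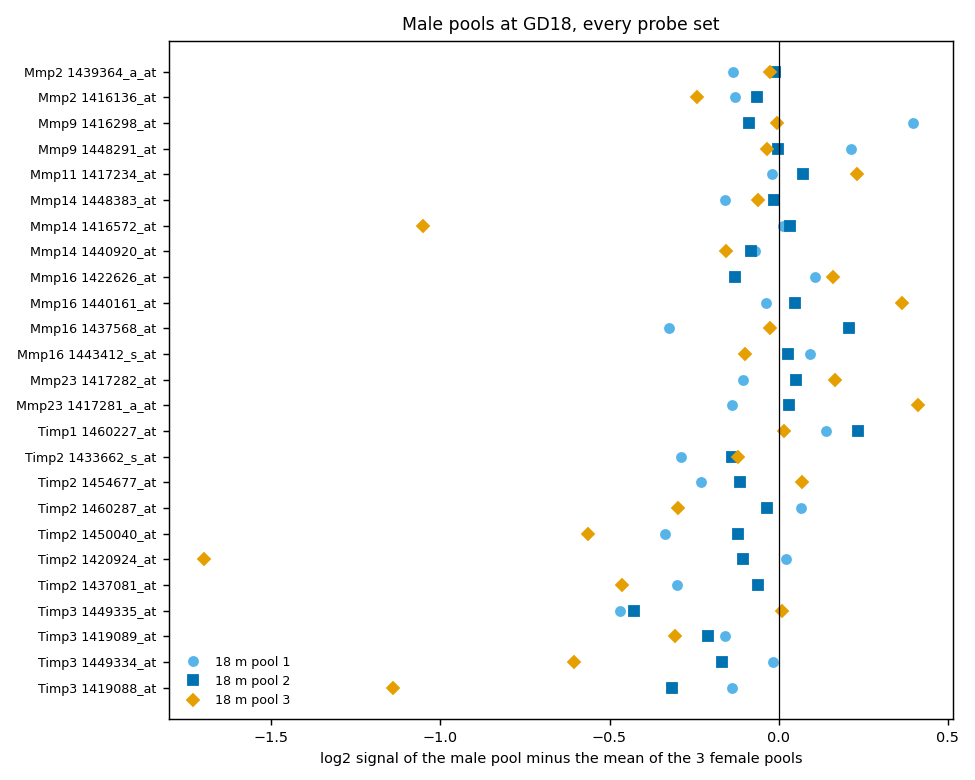
Log2 signal of each pool of 18 m minus the mean of the 3 pools of 18 f, for each of the 25 probe sets. Pool 3 lies far to the left on Timp2 1420924_at (-1.70), Timp3 1419088_at (-1.14) and Mmp14 1416572_at (-1.05), where pools 1 and 2 lie between -0.31 and 0.03.

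Genes that act with the metalloproteinases were counted between the days as well. Over the 6 lists together, 24 of 63 genes were called higher and 2 lower at GD18 in flutamide-treated males (13% and 13.8% of all genes), 21 and 7 in males (17.7% and 12.4% of all genes), and 26 and 7 in females (17.2% and 22.5% of all genes). These shares of all genes are the background of each list below, and with few genes in a list its count was read as a description only. Of 15 genes of their matrix substrates, 10 were called higher and 1 lower at GD18 in flutamide-treated males, 7 and 2 in males, and 11 and 1 in females. Fn1 (fibronectin) was higher by 1.23 in flutamide-treated males, 1.14 in males and 1.54 in females, Eln (elastin) by 1.01, 1.02 and 1.72, Col4a2 (a type IV collagen chain of basement membranes) by 0.81, 0.66 and 0.98, and Lama5 (a laminin chain) by 0.70, 0.69 and 0.99. The genes called lower, named after their values were seen, were Vcan (the proteoglycan versican) in all 3 and Col18a1 in males. Of 6 genes listed as other inhibitors or as testicans, a family of matrix proteoglycans, 2 were called higher in flutamide-treated males. In males 1 was called higher and in females 3, with none lower. Spock2 is a testican, and its place in this list does not mark it as an inhibitor. It was higher by 1.44 in flutamide-treated males (adjusted p = 1.1e-06), 1.37 in males (adjusted p = 1e-06) and 1.47 in females (adjusted p = 1.2e-07). Reck, a membrane-anchored inhibitor of metalloproteinases, was higher by 0.43 in flutamide-treated males and by 0.55 in females, and its difference in males was 0.18 (adjusted p = 0.078). The sex by day interaction was called for 7 of the 63 genes, all with a negative value (11.1%, beside 4.77% of all genes), among them Reck (-0.37, adjusted p = 0.043), Itgav (-0.34, adjusted p = 0.017), Adamts1 (-0.59, adjusted p = 0.022) and, of the substrates, Col5a1, Lamc1, Eln and Col1a1.

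Of 13 proteinases of the ADAM and ADAMTS families, 5 were called higher and none lower in flutamide-treated males, 5 and 1 in males, and 4 and 1 in females. Adamts1, which cuts proteoglycans such as versican, was higher by 0.73 in flutamide-treated males, 0.61 in males and 1.20 in females. Of 9 genes of metalloproteinase activation and the plasmin system, 3 were called higher and 1 lower in flutamide-treated males, 3 and 2 in males, and 3 and 4 in females. Among them Pcsk5, a proprotein convertase, was higher by 0.37, 0.47 and 0.58 in flutamide-treated males, males and females, and Bsg (basigin, an inducer of metalloproteinases) by 0.49, 0.45 and 0.51, whereas Pcsk6 was lower by log2 differences of -0.59, -0.45 and -0.51. Of the 4 called lower in females, Plg and Serpinf2, named after their values were seen, are genes made by the liver, and the liver signal was 2033 to 9567 in 18 f and 12000 to 35260 in 17 f. The part of the liver signal in the differences of these genes was not tested.

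Of 8 genes of metalloproteinase uptake and docking, 3 were called higher and none lower in flutamide-treated males, 4 and 2 in males, and 5 and 1 in females. Lrp1, the endocytic receptor that clears metalloproteinases and their complexes with inhibitors, was higher by 0.71 in flutamide-treated males, 0.58 in males and 0.86 in females, and Sdc1 (syndecan-1) by 0.52, 0.46 and 0.49. Of 12 other metalloproteinases measured, only Mmp8 (neutrophil collagenase) was called, by 0.46 in flutamide-treated males (adjusted p = 0.0067) and 0.68 in males (adjusted p = 0.00028), and its difference in females was 0.29 (adjusted p = 0.05).

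**Figure D5:**
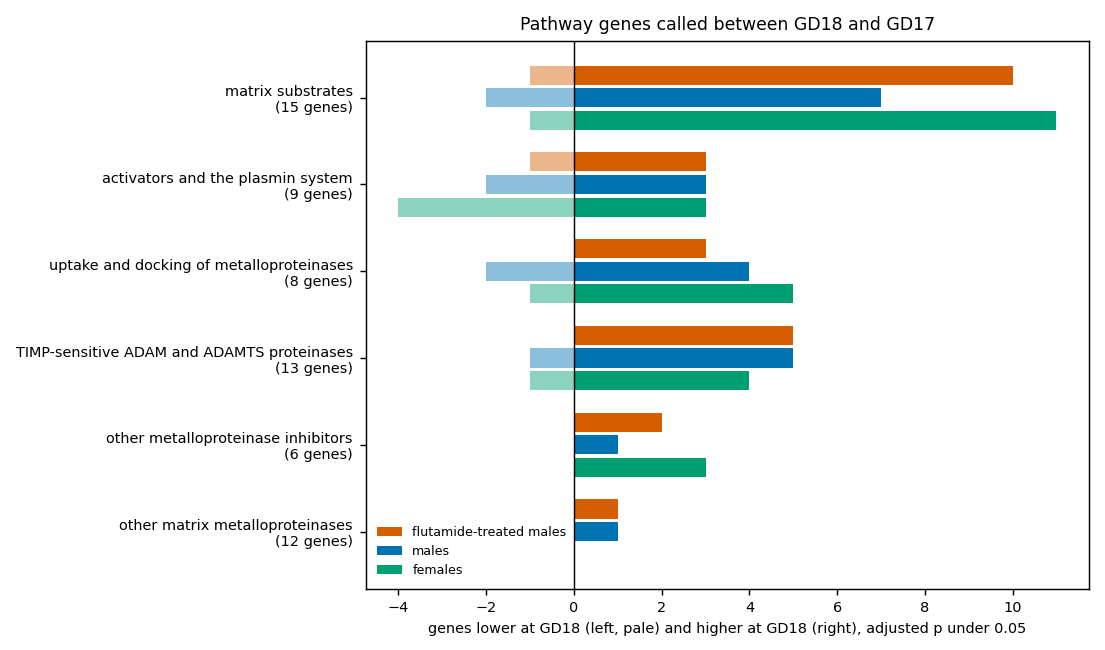
Number of genes called higher (right) and lower (left) at GD18 than at GD17 in 6 lists of genes that act with the metalloproteinases, for flutamide-treated males, males and females. The matrix substrates have the largest counts, with 10, 7 and 11 of 15 genes higher.

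Between flutamide-treated males and males, 1 of the 63 genes was called at GD18 (1.59%, beside 4.22% of all genes) and 4 at GD17 (6.35%, beside 2.69%). Between males and females, 0 were called by limma at GD18 (1.68% of all genes, with 8 of the 63 at an unadjusted p under 0.05) and 3 at GD17 (4.76%, beside 1.67%). Between flutamide-treated males and females, 0 were called at GD18 (0.165% of all genes, with 2 of the 63 at an unadjusted limma p under 0.05) and 6 at GD17 (9.52%, beside 4.56%). At GD17 the collagen genes Col5a1 (-0.49), Col1a1 (-0.52) and Col1a2 (-0.32) were lower in flutamide-treated males than in males, and Cd44, a docking site of Mmp9 at the cell surface, was higher (0.45, adjusted p = 0.047). Between males and females at GD17, 3 substrate genes were called higher in males (Col5a1 by 0.30, Lamc1 by 0.31 and Col1a1 by 0.32). At GD18 Plaur, the receptor of urokinase, was 0.38 higher in 18 flut than in 18 m (adjusted p = 0.017).

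Over the 18 arrays, which share the day and the pools, Mmp2 ran with Mmp14 (r = 0.93), with Timp3 (r = 0.95) and with Timp2 (r = 0.88), and Timp1 ran against Timp3 (r = -0.93). Within the groups, once the group means were taken off, these correlations were 0.40, 0.51, 0.77 and -0.21. The 3 genes closest to each gene in pattern over the 18 arrays were, for Timp3, Camk2n1, Lmo7 and Zbtb16 (r = 0.99 each), for Mmp2, Col4a1, Wasf2 and Ssh2 (r = 0.97 to 0.98), for Mmp14, Nid1, Kcna2 and Lama5 (r = 0.97 to 0.98), and for Timp1, Ccdc124, D10Wsu102e and 2010204K13Rik (r = 0.98 each). Timp2 was closest to Cygb, Trim3 and Gtf3c1 (r = 0.94 to 0.95) and Mmp23 to Agap3, Ikbkg and Cdpf1 (r = 0.91 to 0.93). The matches were weaker for Mmp16, with Elavl2, Zfp932 and Snhg14 (r = 0.73 to 0.81), for Mmp11, with Eya3, Gon4l and Herc4 (r = 0.73 to 0.84), and for Mmp9, with the leukocyte genes Rac2, Ptprcap and Prkcq (r = 0.76 to 0.77).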

How the data were processed

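Lung RNA of 6 groups of mouse fetuses, 3 pools per group and 3 fetuses per pool, was measured on 18 MOE430 2.0 arrays. The authors deposited an intensity for each probe set, background-subtracted, normalized and summarized by RMA, and the values were found to be on a linear scale, so that their log2 was taken. The submitters' processing notes name limma. Of 45101 probe sets, the 64 AFFX controls were not tested. An annotation of 2016 gave 1 symbol for 34945 of the 45037 tested probe sets, several for 932 and none for 9160, and only probe sets with 1 symbol stood for a gene.

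Group means of the 18 arrays were fitted in 1 linear model with limma 3.58.1 in R 4.3.3 (12 residual degrees of freedom) and moderated with eBayes, and p was adjusted by Benjamini-Hochberg within each comparison. Intervals are 95% intervals of the moderated statistic. The replicates are biological per the labels, and their number limits the precision. The fit was tested on simulated data. The members and gene lists were chosen with earlier results of these data known. All member genes were named, with, from each pathway list, up to 4 called genes of smallest p and the 3 genes of most similar pattern for each member (Pearson r, among genes at or above the median level). Promoter sequences are those of RefSeq on GRCm38.p6. Alternatives were other normalizations, array weights, a variance trend, a filter on dim probe sets, 1 probe set per gene, the mean of all probe sets of a gene, only the groups compared, a replicate block, and pools left out. Member probe sets without pool 3 of 18 m were an alternative chosen after seeing the data.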

Additional observations from a re-analysis of the deposited data

How the results depend on the processing

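No difference of the 9 genes that was called changed sign under any alternative. The calls of Timp3 and Timp1 between the days were kept under all 12 other settings and with each of 6 pools left out, in flutamide-treated males, males and females. The call of Timp3 between flutamide-treated males and females at GD17 was kept in 1 of the 6 fits with a pool left out. In males, the number of calls between the days, 7 of 9 genes, fell to 2 with only the groups compared and to 4 without pool 3 of 17 m and pools 2 and 3 of 17 f, and was 5 to 7 with 1 pool left out. Averaged over all probe sets of the gene, the difference in males was 0.01 for Mmp14 (adjusted p = 0.92) and 0.03 for Timp2 (adjusted p = 0.84). With 1 pool left out the number was 4 to 5 in flutamide-treated males and stayed at 5 in females. For flutamide-treated males against females at GD17, with 1 call, there were 2 calls with array weights, with only the groups compared, with dim probe sets (below the median level) left out, and without pool 3 of 18 m and of 18 flut. There were 0 with the mean of all probe sets, and 0 to 1 with 1 pool left out. Leaving out the 3 pools that held pancreas genes left only pool 1 of 17 f, so that its count was not read. For flutamide-treated males against males at GD17, with 0 calls, there was 1 with array weights, cyclic loess, the mean of all probe sets, or without pool 3 of 18 m and of 18 flut, and 0 to 1 with 1 pool left out. For males against females at GD18, with 0 calls, array weights gave 1, and 1 pool left out gave 0 to 1. For the sex by day interaction, with 0 calls, array weights gave 2, leaving out pool 3 of 18 m and of 18 flut gave 2, and 1 pool left out gave 0 to 2. In these cases the cause was not tested.

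Replicate numbers did not mark shared litters or days in the labels, and pools of the same number correlated by -0.32 to 0.37 (median -0.03, 45 pairs). With the replicate number as a block, 5 genes were called between the days in flutamide-treated males, 7 in males and 5 in females, 1 between flutamide-treated males and females at GD17, and 0 in the other comparisons, as without the block. The block changed no call of a single gene. No detection call was used here, so that low levels could not be separated from background, which bears most on Mmp9 and Mmp16, whose probe sets were all below the median level.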
